A study of Rattus norvegicus with 12 samples.

Results

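The 7 genes described here are Mbp, Cnp, Mag, Mog, Mobp, Mal and Ugt8. They encode proteins of the myelin sheath that oligodendrocytes wrap around axons or, for Ugt8, an enzyme that makes a lipid of that sheath. These genes were selected by gene symbol alone, which took every probe set that the annotation of the Affymetrix rat array gives to 1 of these symbols. This yielded 14 of the 8740 probe sets tested, or 7 of 4736 named genes. Mobp has 4 probe sets, Mag has 3, Mog and Ugt8 have 2 each, and Mbp, Cnp and Mal have 1 each.

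The arrays compared mixed glial cultures from newborn rat brain after 6 hours with 1 of 3 cytokine mixtures, each cytokine at 10 ng/ml, to find early effects on glial genes. Th1 cultures received TNF-a, interferon-g, g-CSF and IL-2, and M/M cultures, named for monocytes and macrophages, received TNF-a, IL-12p40, IL1a and IL1b, all recombinant rat proteins. Th2 cultures received G-CSF, IL-10, IL-5 and TGF-b1 from pig, and control cultures received no cytokine. The labels omit IL-6 from the M/M mixture and IL-4 from the Th2 mixture, both of which the methods include, and all 12 cultures had grown for 6 to 8 days in a defined medium that held 2% fetal bovine serum. Each of 3 experiments provided 1 array per group, so n = 3 per group. The cultures hold several cell types, and in RNA from such a mixture fewer oligodendrocytes cannot be told apart from less RNA per oligodendrocyte.

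Oligodendrocytes arise from precursor cells and, as they mature, switch on a set of myelin genes that includes all 7 of these. Compact myelin is held together by basic proteins on the inner face of its membranes, whereas glycoproteins such as MAG and MOG sit on membranes that face the axon or the outside of the sheath. Myelin lipid is rich in galactosylceramide, whose synthesis marks the maturing cell, and several myelin proteins are targets of the immune attack in experimental demyelinating disease.

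No probe set of the 7 genes passed the test with any mixture. Limma, fitted to all probe sets with experiment as a block and with Benjamini-Hochberg adjustment, called 0 of the 14 under Th1, 0 under M/M and 0 under Th2 cytokines against control, and their adjusted p values lay between 0.342 and 0.998. Among all probe sets the same fit called 0% under Th1, 0.263% under M/M and 0.0114% under Th2 cytokines, so that a count of 0 among 14 is close to the background. At an unadjusted p under 0.05 the fit took 0 of the 14 with each mixture, against 486 of all probe sets under Th1, 1394 under M/M and 590 under Th2. All 6 comparisons shared arrays, and those of mixtures with control shared the 3 control arrays, so their values are given side by side and are not independent.

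Mbp, whose basic protein binds the inner faces of myelin membranes together, had a mean signal above that of 99.4% of probe sets, a rank that does not compare transcript levels between probe sets. Its signals in experiments 1, 2 and 3 were 2950.2, 6881 and 2357 under Th1, 3723, 6365 and 3316 under M/M, and 3337, 5984 and 2680.3 under Th2 cytokines, against 3643, 5558 and 1831 in control cultures. In every group experiment 2 was highest and experiment 3 lowest, and the ranges of the 4 groups overlapped. The control cultures differed 3.04-fold among themselves, while treated arrays ranged from 0.81 to 1.81 of the control of their own experiment. The log2 change was 0.12 (SE 0.18, adjusted p = 0.924) under Th1, 0.36 (SE 0.18, adjusted p = 0.342) under M/M and 0.18 (SE 0.18, adjusted p = 0.83) under Th2 cytokines by limma. With M/M cytokines Mbp was above control in 3 of 3 experiments, as were 32% of all probe sets, whose median change was 0.33. The 95% interval of the Mbp ratio ran from 0.98 to 1.68. With each array's median log2 signal subtracted, Mbp changed by -0.07 (SE 0.18) and was above control in 1 of 3 experiments.

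Cnp, for the cyclic nucleotide phosphodiesterase of noncompacted myelin, had a mean signal above that of 98.5% of probe sets. Its signals in experiments 1, 2 and 3 were 3197, 4625 and 1289 under Th1, 3554, 4145 and 1702 under M/M, and 3155, 4085 and 1169.7 under Th2 cytokines, against 3722, 4005 and 700.7 in control cultures. The control array of experiment 3 was the lowest of the 12, and in that experiment the treated arrays stood at 1.84, 2.43 and 1.67 times control under Th1, M/M and Th2 cytokines. In experiment 1 all 3 treated arrays were below control, at 0.859, 0.955 and 0.848 times it. The log2 change was 0.29 (SE 0.23, adjusted p = 0.86) under Th1, 0.42 (SE 0.23, adjusted p = 0.37) under M/M and 0.18 (SE 0.23, adjusted p = 0.865) under Th2 cytokines.

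**Figure D1:**
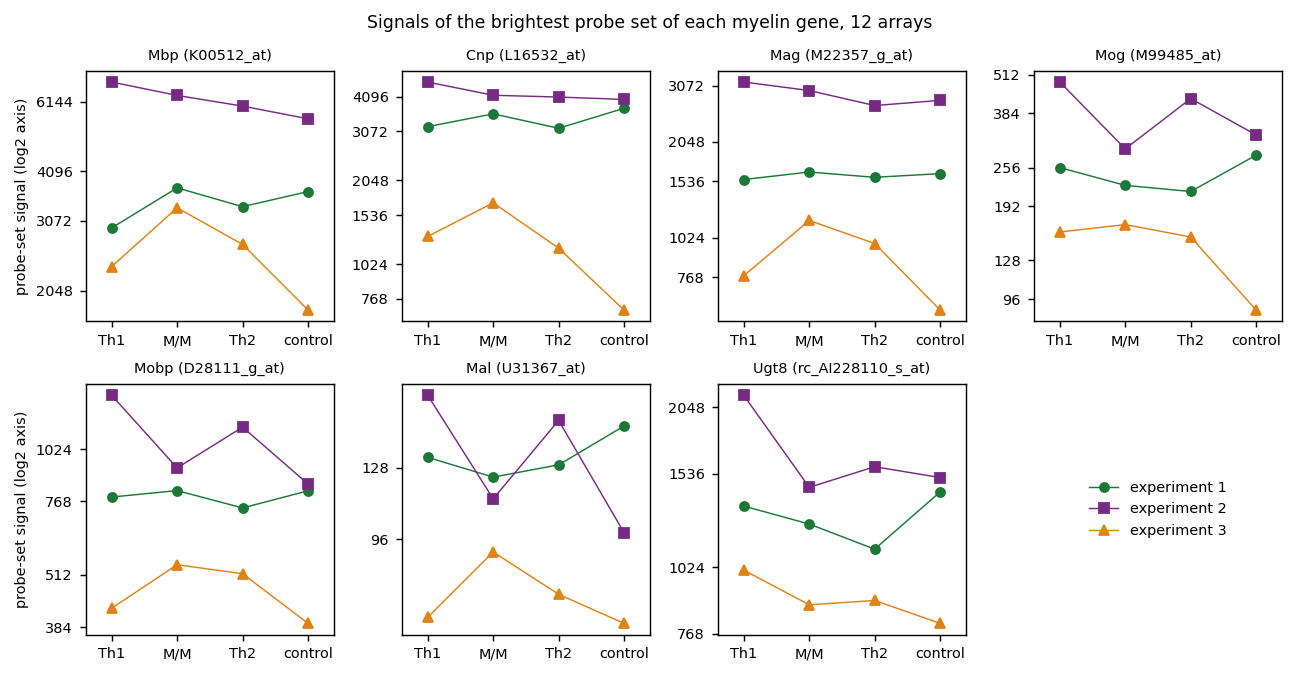
Signal of the brightest probe set of each gene (log2 axis) in the Th1, M/M, Th2 and control array of each experiment, with 1 line per experiment. For every gene but Mal the experiment 2 arrays lie on top and the experiment 3 arrays at the bottom, with Mbp in control cultures at 5558 in experiment 2 and 1831 in experiment 3.

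Mag encodes an adhesion glycoprotein of the innermost myelin layer, next to the axon. Its brightest probe set, M22357_g_at, had signals of 1558, 3151 and 776.8 under Th1, 1644, 2963 and 1158 under M/M, and 1583, 2659 and 980.7 under Th2 cytokines in experiments 1, 2 and 3, against 1625, 2759 and 606.3 in control cultures. Within experiments 1 and 2 the treated arrays ranged between 0.958 and 1.14 of control, and only in experiment 3 did they all lie well above it, at 1.28, 1.91 and 1.62 times control under Th1, M/M and Th2 cytokines. The 3 Mag probe sets gave log2 changes of 0.16 to 0.52 under Th1, 0.34 to 0.56 under M/M and 0.11 to 0.49 under Th2 cytokines, and M22357_at, the dimmest, gave the upper end each time.

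Mog encodes a glycoprotein on the outer surface of the myelin sheath. Probe set M99485_at had signals of 256, 485 and 158 under Th1, 224, 294 and 167 under M/M, and 214, 428 and 152 under Th2 cytokines in experiments 1, 2 and 3, against 281, 327 and 88.4 in control cultures. Th1 and Th2 arrays lay below control in experiment 1 and above it in experiments 2 and 3, whereas the M/M arrays exceeded control in experiment 3 only. Its log2 change was 0.43 (SE 0.27, adjusted p = 0.857) under Th1, 0.15 (SE 0.27, adjusted p = 0.802) under M/M and 0.26 (SE 0.27, adjusted p = 0.828) under Th2 cytokines. The other Mog probe set, L21995_s_at, gave 0.56, 0.56 and 0.32 under Th1, M/M and Th2 cytokines.

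Mobp encodes a small basic protein of compact central myelin, and 3 of its 4 probe sets had the lowest log2 changes of the 14 under M/M cytokines. Probe set D28110_at had signals of 348, 675 and 154 under Th1, 287, 408 and 151 under M/M, and 303, 676 and 187 under Th2 cytokines in experiments 1, 2 and 3, against 436, 606 and 148 in control cultures. With M/M cytokines it was at 0.658 and 0.673 of control in experiments 1 and 2 and at 1.02 in experiment 3, so the groups overlapped. The log2 change was -0.38 (SE 0.22, adjusted p = 0.406) under M/M, -0.04 under Th1 and -0.01 under Th2 cytokines. Probe sets D28111_at and D28110_g_at gave -0.07 and -0.10 under M/M cytokines. The brightest, D28111_g_at, gave 0.20, from signals of 815, 923 and 541 under M/M cytokines against 814, 845 and 392 in control cultures.

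The stretch upstream of Mobp is shown because it held the most matches to a Sox core among the members, beside those of Mag and Cnp. RefSeq windows were matched for 6 of the 7 genes, and the letters ACAANG, the core bound by Sox factors such as the oligodendrocyte factor Sox10, were searched on both strands of the 250 bases before each start site. Mobp held 8 matches, Mag 2, Cnp 1, Mal and Ugt8 held 0, and the 2 windows of Mbp held 0 and 3, while 36.9% of 33469 RefSeq windows of that length held at least 1. The following stretches run from 250 to 101 bases before the start site, 5′ to 3′ on the gene's strand, with matches in capitals, at chr8:128746982-128747131 on the plus strand for Mobp, chr1:95291145-95291294 on the minus strand for Mag and chr10:86011254-86011403 on the plus strand for Cnp (GRCr8).
Mobp: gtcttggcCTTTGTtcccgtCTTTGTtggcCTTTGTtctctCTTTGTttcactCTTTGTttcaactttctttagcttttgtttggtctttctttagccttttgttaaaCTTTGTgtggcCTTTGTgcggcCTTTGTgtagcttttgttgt
Mag: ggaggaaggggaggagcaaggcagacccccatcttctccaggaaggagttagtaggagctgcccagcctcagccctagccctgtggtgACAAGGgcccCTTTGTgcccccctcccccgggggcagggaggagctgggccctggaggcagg
Cnp: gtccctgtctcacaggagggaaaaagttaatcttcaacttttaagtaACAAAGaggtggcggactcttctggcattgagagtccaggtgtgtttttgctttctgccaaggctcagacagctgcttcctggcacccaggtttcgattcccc
The Mobp matches are all CTTTGT, the reverse complement of ACAAAG, in a stretch with a GC content of 40%, against 68% for Mag and 49.3% for Cnp. They start at -242, -230, -220, -209, -197, -142, -131 and -120 from the start site, as a short T-rich unit repeated at near-even spacing. The share of windows with as many as 8 matches was not counted. The NF-kappaB letters GGGANTTCC were in 0 of these 6 genes and in 1.43% of windows, and the AP-1 letters TGANTCA were in Mal alone and in 6.34% of windows. Of the other letters searched, GGGCGG, the Sp box, was in Mbp, Cnp, Mal and Ugt8 and in 30.5% of windows, the E-box CANNTG was in all 6 genes but Ugt8 and in 65.5% of windows, and CCAAT was in 0 of the 6 and in 34% of windows. Mbp counts here as 1 gene, although its 2 windows held 0 and 3 E-box matches. These are matches of letters only, and no binding was measured.

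Mal encodes a membrane proteolipid of myelin and T cells, and its single probe set had a mean signal above that of 65.7% of probe sets. Its signals in experiments 1, 2 and 3 were 133, 171 and 70.0 under Th1, 123, 113 and 91.1 under M/M, and 129, 155 and 76.8 under Th2 cytokines, against 151, 98.5 and 68.3 in control cultures. All treated arrays were below control in experiment 1 and above it in experiments 2 and 3, and the log2 changes were 0.22, 0.10 and 0.20 under Th1, M/M and Th2 cytokines (SE 0.27 each).

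Ugt8 encodes the transferase that makes galactosylceramide. Probe set rc_AI228110_s_at had signals of 1335, 2155 and 1012 under Th1, 1235, 1447 and 871 under M/M, and 1108, 1582 and 887 under Th2 cytokines in experiments 1, 2 and 3, against 1419, 1509.8 and 804 in control cultures. Its log2 change was 0.25 (SE 0.17, adjusted p = 0.857) under Th1, -0.05 under M/M and -0.05 under Th2 cytokines. The other probe set, U07683_at, was far dimmer, with a mean signal above that of only 16.7% of probe sets, and is the 1 member that a filter on the dimmest 25 percent removed. Its signals were 8.78, 8.42 and 1.3 under Th1, 8.74, 11.1 and 6.9 under M/M, and 12.8, 11.5 and 6.6 under Th2 cytokines, against 6.84, 5.08 and 3.0 in control cultures. All Th2 arrays, and all M/M arrays, were above the control of their experiment, as were 25% and 32% of all probe sets in 3 of 3 experiments. By limma the log2 changes of 1.07 (SE 0.54, adjusted p = 0.717) and 0.90 (SE 0.54, adjusted p = 0.419) stayed short of the threshold.

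The precision of these comparisons can be read from the 95% intervals, given here on the deposited scale. For the 13 probe sets other than U07683_at, the intervals of the ratio to control lay between 0.484 and 2.39 under Th1, between 0.55 and 2.39 under M/M and between 0.642 and 2.27 under Th2 cytokines. The whole interval was inside a 2-fold change either way for 9 of the 13 under Th1, 11 under M/M and 11 under Th2 cytokines. With each array's median log2 signal subtracted, 2 Mobp intervals under M/M passed beyond a 2-fold decrease. These were D28110_at (-0.81, half-width 0.39) and D28110_g_at (-0.53, half-width 0.69). Mag M22357_at (0.13, half-width 0.66) and Mog L21995_s_at (0.13, half-width 0.55), outside 2-fold as deposited, came inside it. These centred half-widths took their t quantile from the fit on the deposited scale. The centred fit had fewer degrees of freedom, so its own 95% intervals are somewhat wider than those given.

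The direction of the members differed between experiments under each mixture. In experiment 1, 1 of the 14 probe sets was above its control under Th1, 6 under M/M and 3 under Th2 cytokines. In experiment 2 these counts were 14, 8 and 12, and in experiment 3 they were 12, 14 and 14. The median log2 change of the 14 over experiments 1, 2 and 3 was -0.20, 0.54 and 0.34 under Th1, -0.13, 0.08 and 0.89 under M/M, and -0.23, 0.23 and 0.56 under Th2 cytokines. All probe sets of the array shifted too, with medians of -0.04, 0.49 and -0.03 under Th1, -0.0017, 0.39 and 0.62 under M/M, and -0.02, 0.40 and 0.18 under Th2 cytokines.

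The deposited arrays differ in overall brightness, with medians from 24.5 to 60.98, and a normalization between them is not stated. The median log2 change of all probe sets was 0.14 under Th1, 0.33 under M/M and 0.19 under Th2 cytokines, beside 0.20, 0.27 and 0.19 for the 14 members. After subtraction of its median log2 signal from every array, called centring here, the members had medians of 0.04, -0.16 and -0.02 under Th1, M/M and Th2 cytokines. Centring turned the sign of 2 members under Th1, 7 under M/M and 6 under Th2 cytokines, and none of the 14 passed the adjusted threshold on that scale either.

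**Figure D2:**
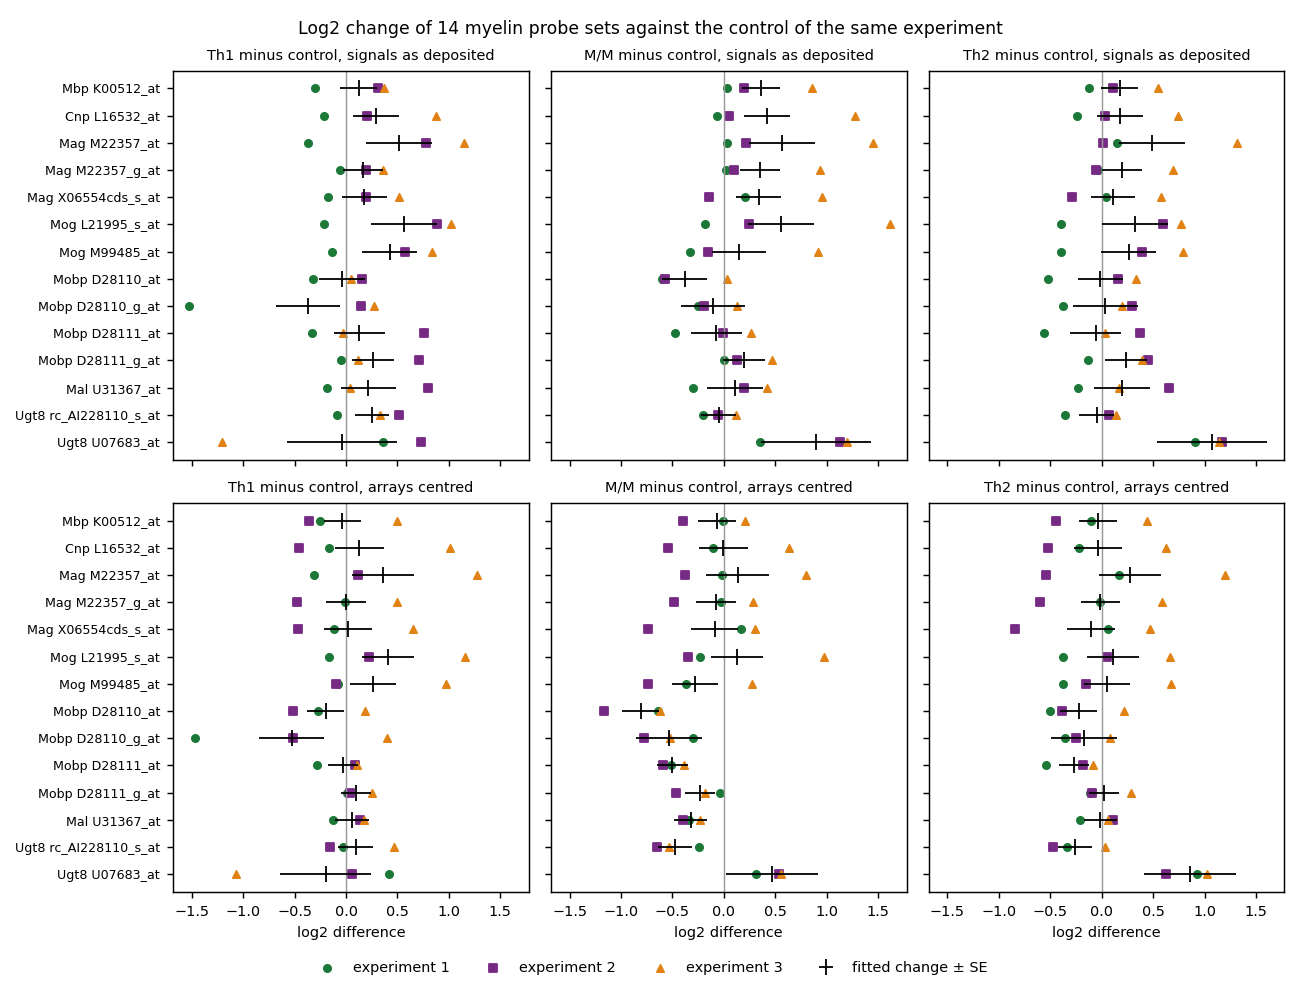
Log2 difference of each of the 14 probe sets from the control of the same experiment (points, 3 experiments) with the fitted change and its SE (bar), for Th1, M/M and Th2 cytokines. The upper row uses signals as deposited and the lower row arrays centred on their medians. With M/M cytokines the 4 Mobp probe sets, Mal and rc_AI228110_s_at of Ugt8 lie below 0 in every experiment of the lower row but not of the upper row.

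With arrays centred, M/M cytokines left 11 of the 14 member probe sets below control, as were 59.0% of all probe sets. Of the members, 6 were lower in 3 of 3 experiments, namely the 4 of Mobp, Mal and rc_AI228110_s_at of Ugt8, against 23.3% of all probe sets. At an unadjusted p under 0.05, 3 members were lower, against 8.02% of all probe sets. These were Mobp D28110_at at -0.81 (SE 0.18, adjusted p = 0.197), Mobp D28111_at at -0.50 (adjusted p = 0.237) and Ugt8 rc_AI228110_s_at at -0.48 (adjusted p = 0.281), each by limma. Their values after quantile normalization, which also forces arrays to a common scale, were -0.72, -0.42 and -0.32, with adjusted p = 0.119, 0.283 and 0.349. The count of 3 was 1 with experiment 2 left out, 3 with experiment 1 left out and 4 with experiment 3 left out. The shares of all probe sets in these runs were 2.88%, 4.55% and 12.1%. Of single arrays, the M/M array of experiment 1 or the control array of experiment 3, when left out, gave 5, beside 6.44% and 11.1% of all probe sets. The M/M array of experiment 3 or the control array of experiment 2 gave 2, beside 5.27% and 4.79%.

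Set against each other, the mixtures separated no member after adjustment either, and the fit called 0% of all probe sets for Th1 against M/M, for Th1 against Th2 and for M/M against Th2. At an unadjusted p under 0.05 it took 0 members in each, and 253, 162 and 343 of all probe sets. For Th1 against M/M cytokines with arrays centred, 6 of the 14 members were higher at an unadjusted p under 0.05, against 3.08% of all probe sets. They were Mobp D28110_at (log2 difference 0.61), Ugt8 rc_AI228110_s_at (0.57), Mog M99485_at (0.55), Mobp D28111_at (0.47), Mal (0.38) and Mobp D28111_g_at (0.33), all with an adjusted p = 0.928 by limma. With arrays centred these 6 were higher under Th1 in 3 of 3 experiments, as were 19.5% of all probe sets. That agreement comes from the same arrays as the p values. As deposited, 2 of the 14 members, D28110_at and rc_AI228110_s_at, were higher in 3 of 3, against 4.97% of all probe sets. Mobp D28110_at had a signal of 348, 675 and 154 under Th1 and of 287, 408 and 151 under M/M cytokines. On the deposited scale the count at an unadjusted p under 0.05 was 0 and after quantile normalization it was 4, beside 0.24% and 2.4% of all probe sets. With arrays centred it was 3 without experiment 1, 2 without experiment 2 and 4 without experiment 3, beside 1.92%, 2.68% and 2.72%. Leaving out only the M/M array of experiment 2 gave 2, beside 2.19% of all probe sets. Leaving out only the Th1 or only the M/M array of experiment 3 gave 3, beside 1.33% and 1.73%. These probe sets share arrays and 3 of them share the gene Mobp, so they are not independent.

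Probe sets of 1 gene did not always move alike in the 9 treated arrays. For Mag, M22357_g_at and X06554cds_s_at stayed within 0.5 of each other on the log2 scale in 9 of 9 arrays, with a median difference of 0.11. The dimmer M22357_at was within 0.5 of M22357_g_at in 5 of 9 arrays and of X06554cds_s_at in 6 of 9, with differences of up to 0.79 and 0.73. For Mog, L21995_s_at and M99485_at did so in 8 of 9, and the largest difference, 0.70, was in the M/M array of experiment 3. For Mobp, D28110_at and D28110_g_at had the same sign in 9 of 9 arrays, but under Th1 cytokines in experiment 1 they stood at 0.799 and 0.347 of control, a difference of 1.203. The D28110_g_at signal in that array was 138, against 397 in its control, and in the other 8 arrays the pair stayed within 0.5. In the same array D28110_g_at and D28111_g_at differed by 1.48, the widest gap among the 6 Mobp pairs, and D28111_at and D28111_g_at had the same sign in 6 of 9 arrays. The Ugt8 probe sets, of which U07683_at was near the dim end of the array, agreed in sign in 4 of 9 arrays and in 1 of 9 with arrays centred, and differed by up to 1.54.

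**Figure D3:**
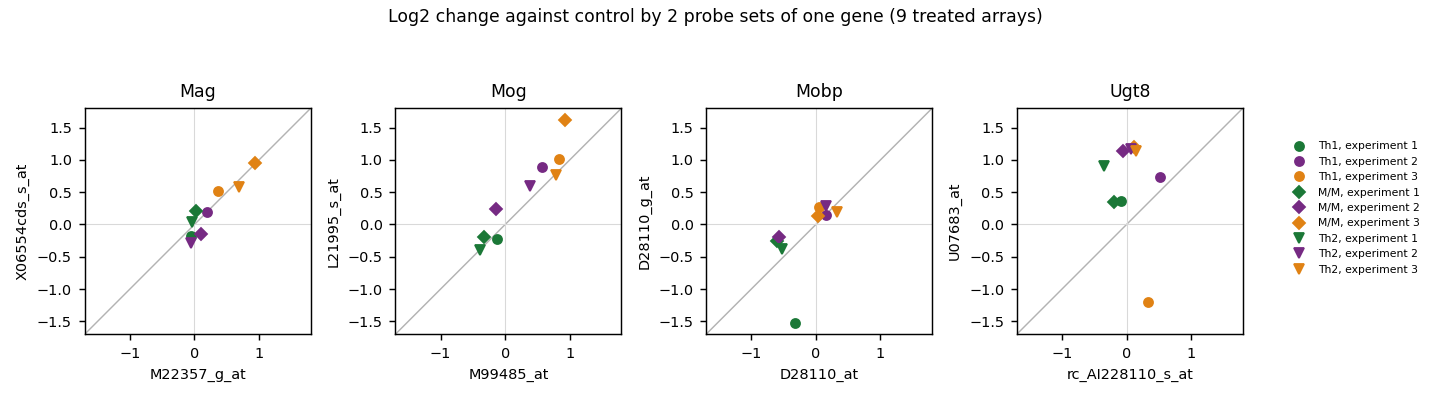
Log2 change against the control of the same experiment by 1 pair of probe sets for each of Mag, Mog, Mobp and Ugt8 (Mag M22357_g_at with X06554cds_s_at, Mobp D28110_at with D28110_g_at), with 1 point for each of the 9 treated arrays and the grey diagonal marking equal change. Points of this Mag pair lie off the diagonal by up to 0.25, whereas M22357_at, not drawn, differed from M22357_g_at by up to 0.79, 1 Mobp point (Th1, experiment 1) lies 1.203 from it in the vertical direction, and the Ugt8 points lie off it by up to 1.54.

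The 3 experiments themselves were then compared, with treatment group as a term and arrays centred, a comparison chosen after the values were seen. The 4 arrays of an experiment differ in treatment and may come from 1 culture preparation, so the p values measure only the spread between those arrays. In experiment 2, relative to experiment 1, 10 of the 14 member probe sets were higher by limma after adjustment, beside 2.12% of all probe sets called higher and 4.58% called lower. Relative to experiment 3, 11 of the 14 were higher in experiment 2, beside 21.6% of all probe sets called higher and 30.8% lower. No member was called lower in experiment 2 in either comparison, and the median difference of the members was 0.79 in both, against 0.06 and -0.16 for all probe sets. Between experiments 1 and 3, 2 members were higher and 2 lower in experiment 1, beside 18.2% and 28.5% of all probe sets, and these 4 calls became 0 to 2 with any of the 8 arrays left out.

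Mbp was higher in experiment 2 by 1.03 (SE 0.16, adjusted p = 0.0033) on the log2 scale relative to experiment 1 and by 0.50 (SE 0.16, adjusted p = 0.0201) relative to experiment 3. Mobp D28110_g_at differed most from experiment 3, by 2.22 (adjusted p = 0.000102), with control signals of 636 in experiment 2 and 73.7 in experiment 3. The 3 Mag probe sets differed by 0.79 to 1.48 from experiment 1, of which M22357_at did not pass (adjusted p = 0.112). Cnp was 1.05 above experiment 3 (adjusted p = 0.00164), and its difference of 0.47 from experiment 1 did not pass (adjusted p = 0.222). The exceptions were Mal, at 0.13 and -0.02 relative to experiments 1 and 3, and the Ugt8 probe set U07683_at, at 0.09 and 0.43, none of which passed. The brighter Ugt8 probe set passed relative to experiment 1 (0.55, adjusted p = 0.0493) and not relative to experiment 3 (0.08, adjusted p = 0.644).

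These counts depended on scale and on single arrays. On the deposited scale 5 members were higher in experiment 2 than in experiment 1 after adjustment, and all 14 were higher in experiment 1 than in experiment 3. Array medians on that scale were 56.97 to 60.86 in experiment 1, 38.385 to 60.98 in experiment 2 and 24.5 to 42.2 in experiment 3. Over the 4 settings run, 3787 to 4911 of all 8740 probe sets were called in either direction for experiment 1 against 3. For experiment 2 against 1 these counts were 402 to 1158. With arrays centred, the 10 members of the comparison of experiment 2 with experiment 1 fell to 6 without the Th1 array of either experiment and to 5 without the Th2 array of either, whereas the median difference stayed between 0.67 and 0.91 with any of the 8 arrays left out. Experiment 3 was deposited with 1 decimal and experiments 1 and 2 with 2, and 167 to 403 values per array were below 1 in experiment 3 against 0 to 3 in the others. Values of exactly 1 numbered 30 to 63 per array in experiment 3 against 200 to 249 in the others. Counts of values below 1 therefore do not compare dim signals between experiments.

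**Figure D4:**
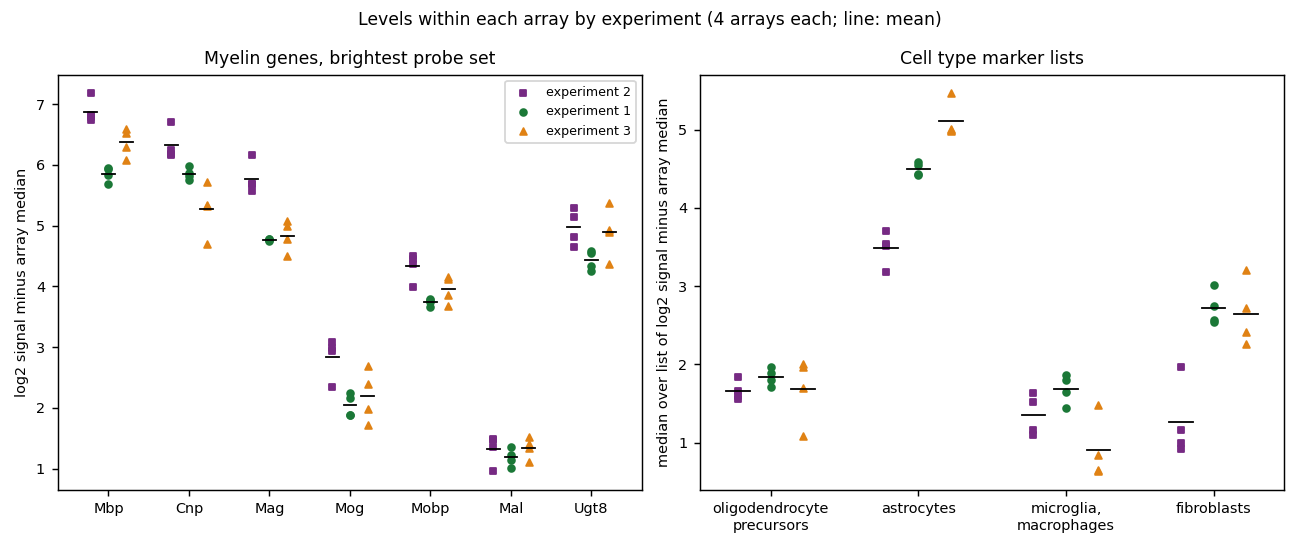
Log2 signal minus the array median for the brightest probe set of each myelin gene (left) and the median of the same over each cell type marker list (right), by experiment, with 4 arrays per experiment and the line at their mean. By their means, members other than Mal are highest in experiment 2, whereas astrocyte and fibroblast lists are lowest there, at 3.18 to 3.70 and 0.92 to 1.96.

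Markers of other cell types moved with the experiment as well. Of all probe sets, 2.12% were called higher and 4.58% lower in experiment 2 than in experiment 1. Relative to experiment 3 these shares were 21.6% and 30.8%. The 6 measured astrocyte markers had a median of 3.18 to 3.70 above the array median on the log2 scale in the 4 arrays of experiment 2, against 4.42 to 4.59 in experiment 1 and 4.98 to 5.46 in experiment 3, and 4 of the 6 were lower in experiment 2 than in experiment 1 after adjustment and 3 of the 6 lower than in experiment 3. Of the 4 fibroblast markers 3 were lower in experiment 2 than in either other experiment, with list medians of 0.92 to 1.96 in experiment 2, 2.54 to 3.02 in experiment 1 and 2.26 to 3.21 in experiment 3. The collagen gene Col1a1 had control signals of 217 in experiment 2, 1682 in experiment 1 and 833 in experiment 3. The precursor markers Pdgfra and Cspg4 had medians of 1.55 to 1.84 in experiment 2 and 1.71 to 1.97 in experiment 1, against 1.08 to 2.01 in experiment 3, and neither passed the test. The 6 microglia and macrophage markers had medians of 1.10 to 1.64 in experiment 2 and 1.44 to 1.87 in experiment 1, and 2 of them, Aif1 and Fcgr2b, were lower in experiment 2. In experiment 3 their medians were 0.64 to 1.48, and relative to it 3 markers were lower and 2 higher in experiment 2. Of the 5 neuronal markers 3 (Nefl, Syt1 and Snap25) were higher in experiment 2 than in experiment 3, and 0 passed relative to experiment 1. Of the 3 endothelial markers 1 (Vwf, by 2.05) was higher in experiment 2 than in experiment 3, and 0 passed relative to experiment 1. The 1 measured Schwann cell marker, Prx, was lower in experiment 2 than in experiment 3 (-1.71) and did not pass relative to experiment 1. The part of these cell types in the myelin values was not tested. Neuronal and endothelial markers were dim, with summed signals of 48.3 to 268 over 5 genes and 17.4 to 132 over 3 genes.

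Other genes linked to myelin or oligodendrocytes were read from 4 wider lists, whose genes are not all particular to oligodendrocytes. Prx, among the myelin proteins, also served as a marker of Schwann cells. Of 25 further myelin protein genes 11 were measured, of 21 lipid enzymes 6, of 23 precursor and lineage genes 14, and of 10 iron and metabolic genes 6, and 0 in each list passed the test with any mixture against control. Among myelin proteins the brightest were Sirt2, a deacetylase found in myelin, the tetraspanin Cd9 and Pmp22, with log2 changes of 0.06, -0.15 and -0.23 under M/M cytokines. The brightest lipid genes were the sterol enzymes Sqle and Fdft1 and the desaturase Scd, at 0.00098, -0.42 and -0.16, and the lineage genes Myrf, a master factor of myelin gene transcription, the proteoglycan Bcan and Id2 were at -0.04, -0.09 and 0.47. The iron and metabolic genes Gstp1, Apod and Cryab were at 0.02, 0.13 and -0.08. List medians under M/M cytokines were 0.25, 0.09, 0.41 and 0.05 for the 4 lists, beside 0.33 for all probe sets. Under Th1 cytokines they were 0.13, 0.14, 0.17 and 0.02, beside 0.14 for all probe sets. Under Th2 cytokines they were 0.05, -0.02, 0.28 and -0.0036, beside 0.19. The single genes ranged more widely under M/M, from -0.23 to 1.23 for myelin proteins and from -0.42 to 1.71 for lipid enzymes. They ranged from -0.31 to 0.80 for lineage genes and from -0.33 to 0.58 for metabolic genes.

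Between experiments 2 and 1 the same lists divided by gene, beside 2.12% of all probe sets called higher in experiment 2 and 4.58% called lower. The myelin genes Gjb1, a connexin, Pllp, a raft proteolipid, and Sirt2 were higher in experiment 2 by 1.62, 0.99 and 0.96 on the log2 scale with arrays centred (adjusted p = 0.00134, 0.00187 and 0.0135), and Cd82 was lower (-0.94, adjusted p = 0.0218). Among lineage genes Sox10, Lpar1 and Myrf were higher by 1.02, 0.99 and 0.82, whereas Ptprz1, Hes1 and Id2 were lower, at -0.98, -1.08 and -0.45 (adjusted p between 0.0015 and 0.0397 for the 6). Sox10 had control signals of 1510.1 in experiment 2, against 705 in experiment 1 and 212 in experiment 3. No lipid enzyme passed, and of the metabolic genes Cryab alone was lower, at -1.05 (adjusted p = 0.00298).

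Relative to experiment 3 the same lists held more genes that were lower in experiment 2, as did the array as a whole. Of all probe sets 30.8% were called lower and 21.6% higher, against 4.58% and 2.12% relative to experiment 1. Of the myelin proteins 2 were higher, Pllp (1.19) and Gjb1 (1.43), and 4 were lower, Cd82 (-1.93), Pmp22 (-2.05), Prx (-1.71) and Nfasc (-1.52). No lipid enzyme was higher, and Ugcg (-0.87), Asah1 (-1.55), Sqle (-0.98) and Scd (-0.99) were lower. Among lineage genes 5 were higher, Sox10 (1.54), Lpar1 (1.89), Erbb3 (2.19), Hes5 (1.68) and Bcan (1.53), and 5 were lower, Ptprz1 (-1.79), Hes1 (-1.61), Ncan (-0.97), Sox11 (-0.79) and Id2 (-0.56). Gpd1, a glycerol phosphate dehydrogenase, was higher by 2.74 and Cryab lower, at -2.66. The highest adjusted p among these 22 genes was 0.0278, for Ugcg, and the list medians were 0.11, -0.93, 0.03 and 0.20 for myelin proteins, lipid enzymes, lineage genes and metabolic genes.

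Across the 12 arrays, after each array was centred and each experiment mean removed, the brightest probe sets of the members followed the mean of the other members with Pearson coefficients from 0.613 for Mal to 0.917 for Mog. Of 5386 named probe sets compared, those most like the mean pattern of the 7 members were Tprg1l (0.979), Tle5 (0.958), Pex5 (0.956), Map4k1 (0.953) and Myrf (0.945). The points share 3 experiments and the same array scaling, and these coefficients are descriptions without a test.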

How the data were processed

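RNA from 12 mixed glial cultures was measured on Affymetrix rat genome arrays. The deposited values are linear intensity signals that the authors obtained from dChip, whose settings are not given in the sources used here. The table holds 8799 probe sets, of which 59 control probe sets were left out. Values below 0.1 were set to 0.1 before log2, without rescaling.

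Groups were compared in R 4.3.3 by limma 3.58.1 with experiment, taken from the code in the array titles, as a replicate block, a variance prior following mean signal, and Benjamini-Hochberg adjustment over 8740 probe sets at 0.05. The pairing by experiment was checked. Arrays of 1 experiment deviated together from their groups (correlations 0.439 to 0.708), while the highest correlation between experiments was 0.357. Nothing says how separate the cultures within an experiment were. Gene symbols came from the array annotation (7006 probe sets with 1 symbol, 308 with several, 1426 with none). The members and lists were chosen with earlier results of these data known. Every member probe set was named, and from each list the genes past the threshold or otherwise the 3 brightest. The fit was tested on simulated data. Upstream sequences are those of RefSeq (GRCr8).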

Additional observations from a re-analysis of the deposited data

How the results depend on the processing

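No member passed the adjusted threshold for any mixture under any alternative run, replicates left out included, whereas the members' log2 changes, the counts over all probe sets and the added comparisons of experiments did move. Centring took the median member change to 0.04 (Th1), -0.16 (M/M) and -0.02 (Th2). With no replicate block, arrays centred, quantile normalization, values below 16 set to 16, no variance trend or an analysis of variance over the 4 groups after Benjamini-Hochberg, the count was 0 for M/M, in place of 23, and 0 for Th2, in place of 1. It was 14 for M/M with log2 of signal plus 16. With 2 groups only it was 1 (Th1), 389 (M/M) and 13 (Th2). The methods' screening thresholds (a fold above 2 with p under 0.2) took 193, 291 and 204 probe sets and 0 members. They were applied here to 1 analysis of variance over the 4 groups and to mean log2 ratios, not to the paper's own test and averaged folds. Leaving out replicates gave 0 to 82 (Th1), 0 to 70 (M/M) and 0 to 3 (Th2), 0 to 41 for Th1 against Th2, and 0 to 23 for M/M against Th2. The cause was not tested.

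With 1 array per group in each experiment, the replicate block cannot alter a fitted change, so the median member change without it is by construction the same 0.20 (Th1), 0.27 (M/M) and 0.19 (Th2). The block alters the errors, and 0 members passed with it or without it. Leaving out replicates moved these medians between 0.04 and 0.39, between 0.01 and 0.43, and between -0.03 and 0.37.

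For the experiments, added after seeing the data, arrays not centred gave 5 members and a median of 0.63 for experiment 2 against 1, a median of 1.60 for experiment 2 against 3, and 14 members and a median of 0.93 for experiment 1 against 3, where quantile normalization gave a median of 0.26. A fit to those 2 experiments only called 1158 probe sets for experiment 2 against 1, in place of 585. For experiment 1 against 3, 3787 to 4911 probe sets were called over the settings run, the centred one included. Leaving out replicates gave 275 to 459 probe sets and 5 to 9 members for experiment 2 against 1, and 0 to 2 members, in place of 4, for experiment 1 against 3. The number of arrays, 12, limits the precision.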
